A study of Mus musculus with 2 samples.

Results

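The interferon-inducible gene families of the mouse were followed through the nuclei of the fetal lung, in 1 library from fetuses of PBS-treated mothers and 1 library from fetuses of OVA-treated mothers. Members were chosen by gene name alone: RNA rows named Ifi, Ifit, Ifitm, Oas, Slfn, Gbp, Isg or Irf and continued as in these families, together with Stat genes of the pathway. This gave 80 of the 32285 gene rows, the same rows in both libraries. They comprised 11 genes of the HIN-200 group, 6 Ifit, 7 Ifitm, 11 Oas, 10 Slfn, 10 Gbp, 3 Isg and 9 Irf genes, 3 genes of the Irf2bp group and 8 other Ifi genes, and the rest were Stat genes. Several share only the name: the Irf2bp genes encode partners of IRF2, Isg20l2 is a relative of Isg20, and Slfn5os is an RNA that is read against Slfn5. The Mx genes were not analysed here.

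The libraries came from wild-type (C57BL/6J per the study) E18 lungs, that is gestation day 18, and the lungs of 9 fetuses (PBS) or 8 fetuses (OVA) were pooled, each pool from 1 dam per the study. Dams of 6 to 8 weeks of age had received alum by the intraperitoneal route on days -21 and -7, with ovalbumin (OVA) in the OVA group and without it in the PBS group. During gestation, between days 4 and 17, OVA in PBS or PBS alone was put into the nose at intervals of 2 to 3 days. Nuclei were made from sorted cells: CD45+ leukocytes, EpCAM+ epithelium, and ILC2s (group 2 innate lymphoid cells, taken as CD45+, lineage-negative and ST2+). Stromal nuclei, which lie outside these sort gates, were present all the same, and fibroblasts made up 9.84% and 17.1% of the kept nuclei, so shares of types are not those of the lung. With 1 library a group, treatment, dam, litter and library cannot be told apart, and no test was possible. All intervals below cover counting error at 95% only, and UMIs (unique molecular identifiers, the counted RNA molecules) that leave lysed cells can enter any droplet.

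Interferons are secreted alarm proteins. Type I interferons bind the IFNAR receptor, and JAK kinases then phosphorylate STAT proteins, which join IRF9 and bind the interferon-stimulated response element (ISRE). Interferon gamma acts through STAT pairs on another element, the gamma-activated site (GAS). The genes switched on restrict viruses: OAS proteins sense double-stranded RNA, IFIT proteins bind foreign RNA ends, IFITM proteins block virus entry at membranes, GBPs are GTPases that attack vacuoles of microbes, and the HIN-200 proteins include sensors of DNA. Schlafens regulate growth and the use of RNA in immune cells.

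Many members hold the ISRE sequence in their promoters, and stretches around it are shown for members described below and their close relatives. RefSeq promoters (GRCm38.p6, 250 bases before to 50 after the start) matched 66 of the 80 members. An ISRE core, taken as a pair of GAAA 2 bases apart on either strand, lay in the promoters of 30 of the 66 genes (45.5%), beside 3.99% of all 27025 genes. A GAS core (TTC and GAA 3 bases apart) lay in 13 members (19.7%), beside 9.55% of all genes. By family the ISRE core was found in 8 of 10 HIN-200 genes, 5 of 5 Gbp genes, 5 of 6 Ifit genes, 4 of 8 Oas genes, 3 of 10 Slfn genes and none of the 3 Irf2bp genes. The HIN-200 genes lie side by side on chromosome 1 and share nearly the same core, GAAATCGAAA in 6 genes and GAAATTGAAA in 2. The stretches below lie before a RefSeq start and outside annotated exons (by the gene models used for positions, those of Ifi203 and Slfn5 lie inside the gene), are written 5′ to 3′ along the strand of the gene, and have the core in capitals.
Ifi207, chr1:173741826-173741865, minus strand: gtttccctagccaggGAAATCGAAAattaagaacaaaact
Ifi203, chr1:173942503-173942542, minus strand: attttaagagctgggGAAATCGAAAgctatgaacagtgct
Ifi213, chr1:173599321-173599360, minus strand: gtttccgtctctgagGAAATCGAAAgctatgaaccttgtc
Ifi211, chr1:173913059-173913098, minus strand: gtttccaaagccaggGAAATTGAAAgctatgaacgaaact
Stat2, chr10:128270261-128270300, plus strand: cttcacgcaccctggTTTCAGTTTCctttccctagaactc
Oas3, chr5:120777710-120777749, minus strand: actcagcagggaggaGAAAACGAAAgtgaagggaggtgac
Slfn5, chr11:82951932-82951971, plus strand: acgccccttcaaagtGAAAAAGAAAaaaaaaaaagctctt
Slfn8, chr11:83020834-83020873, minus strand: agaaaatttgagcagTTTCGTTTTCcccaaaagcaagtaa
Gbp7, chr3:142530268-142530307, plus strand: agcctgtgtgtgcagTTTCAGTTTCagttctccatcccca
Isg15, chr4:156200866-156200905, minus strand: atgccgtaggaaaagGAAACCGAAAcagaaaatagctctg
In Ifi207 the core ended 31 bases before the start, in Gbp7 43 bases and in Slfn5 145 bases before it. Slfn4 and Oasl2, which are described below, had no match in this window. No promoter entry was matched for Ifi204.

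Nuclei were assigned to types by markers outside these families. Of the nuclei kept, 50.9% (PBS, 4279 nuclei) and 60.4% (OVA, 4996 nuclei) could be gated, and 9 types held at least 50 nuclei in each library. The libraries differed in depth, with 11473351 (PBS) and 13774959 (OVA) gene UMIs and medians of 1115 and 1820 UMIs per kept nucleus. They also differed in mitochondrial UMIs (45.2% and 29.2%), so ratios are given per 1000000 of all gene UMIs (CPM) and, where it matters, per 1000000 of nuclear-gene UMIs. They shared 54 cell barcodes. A Monocyte nucleus had 2 or more monocyte markers, among them at least 1 from a shorter list that included Vcan, Plac8, Ly6c2, Hp and Adgre4, and no macrophage marker. A Macrophage nucleus had 2 or more macrophage markers and no monocyte marker, without a shorter list. This left 52 (PBS) and 124 (OVA) Monocyte nuclei and 100 and 145 Macrophage nuclei, of which 33, 59, 80 and 117 had the minimum of 2 markers.

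The gate was set beside clusters made without the members, the other pathway genes or mitochondrial genes. A Monocyte-like cluster (95 PBS and 205 OVA nuclei) held 24 of 52 and 79 of 124 Monocyte nuclei. A large unnamed cluster led by Acaa1b, Nrg4 and Cd101, with macrophage and monocyte markers side by side (460 and 1122 nuclei), held 46 of 100 and 111 of 145 Macrophage nuclei, and also 10 and 27 Monocyte nuclei. A small Macrophage-like cluster (44 and 48 nuclei) was led by Fcrls, Cd163 and C1qa, a C1q subunit of complement. A larger Macrophage-like cluster led by Sh2d1b1, Nlrp1b and Ear2 (549 and 143 nuclei) held 26 and 8 Macrophage nuclei. Another, led by Atp6v0d2, Wfdc17 and Gpnmb (131 and 134 nuclei), held 17 and 20 Macrophage nuclei. Of 8 neutrophil markers, 4 had UMIs in the Monocyte nuclei of each library, with summed levels of 312 (PBS) and 159 CPM (OVA), and 3 and 2 had UMIs in Macrophage nuclei, with 61.2 and 26.6 CPM. The summed level was thus higher in Monocyte than in Macrophage nuclei of both libraries. Mmp8 was among the markers found, with 130 (PBS) and 31.8 CPM (OVA) in Monocyte nuclei against 5.57 and 5.92 CPM in Macrophage nuclei. Camp, Ltf and Retnlg, also on the list, were at 0 in all 4 sets of nuclei. The part of neutrophil RNA in the results was not tested.

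Over all kept nuclei the members had 6466 (PBS) and 13480 UMIs (OVA), 947 and 1140 CPM. The 3 Irf2bp genes alone gave 1905 and 3399 of these. UMIs were absent for 8 members, and 51 members reached 30 UMIs over both libraries, 34 of them within the gated types. HIN-200, Oas1, Slfn, Gbp and Ifitm genes have close copies in the genome, and reads that fit several copies are dropped by the counting, so the split between close copies is uncertain.

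**Figure D1:**
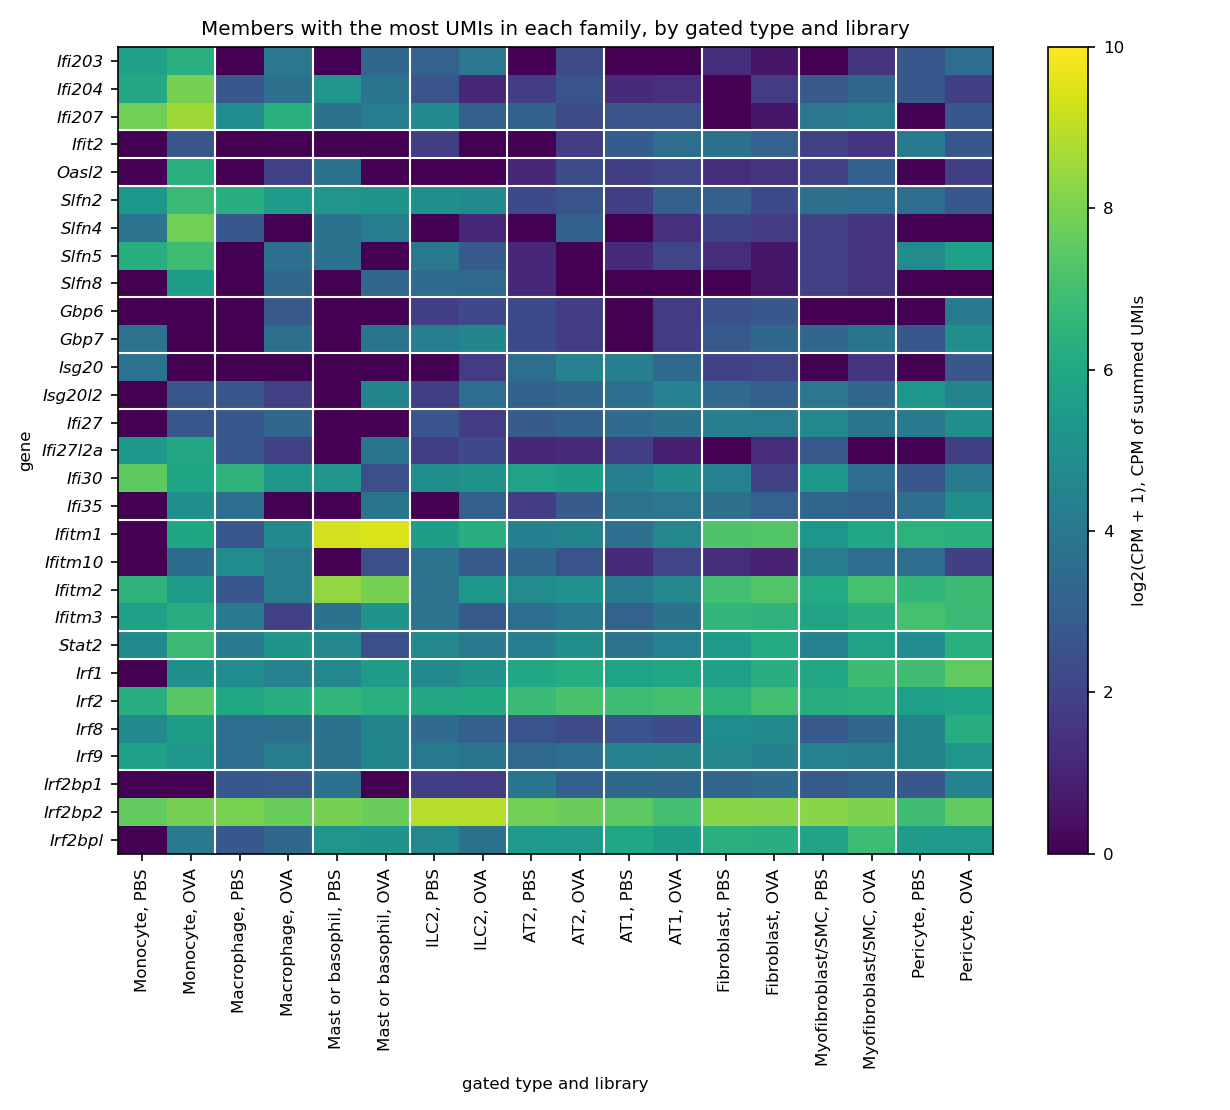
Level of the members with the most UMIs in each family (rows, families set apart by lines) in each gated type and library (columns), as log2(CPM + 1) of UMIs summed over nuclei. Ifi207, Ifi204 and Slfn4 are brightest in OVA Monocyte nuclei, and Ifitm1 and Ifitm2 in mast or basophil nuclei.

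The HIN-200 group separated monocytes from the other gated types. Its summed level in Monocyte nuclei was 363 CPM (PBS) and 891 CPM (OVA), against 33.4 and 109 CPM in Macrophage nuclei. The log2 ratio of Monocyte over Macrophage was 3.44 in PBS (interval 2.14 to 5.01) and 3.03 in OVA nuclei (2.51 to 3.58). No other gated type exceeded 62.0 CPM in either library. The Macrophage gate mostly leaves out a small Macrophage-like cluster with a higher level, which is given below.

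Ifi207, a HIN-200 protein of the nucleus, had 234 CPM in PBS Monocyte nuclei (18 UMIs, interval 138 to 369) and 382 CPM in OVA (72 UMIs, 299 to 481). In Macrophage nuclei it had 27.8 CPM (5 UMIs) and 79.9 CPM (27 UMIs). The monocyte level was higher in both libraries, by 3.07 on the log2 scale in PBS (1.59 to 4.85) and 2.26 in OVA (1.60 to 2.95). Of the members with at least 30 UMIs in Monocyte nuclei over both libraries, it was the one whose level there was at least 4 times that of the next type in both. Ifi203, Ifi27l2a, Ifi209, Ifitm6, Oas2 and Oas3 also passed 4 times in both, from 9 to 19 UMIs in Monocyte nuclei over both libraries. Of these, Ifi209, Ifitm6, Oas2 and Oas3 are named here after their values were seen. In PBS the log2 ratio to the next type rested on few UMIs for some of them. Its interval holds 0 for Ifi27l2a (-0.4 to 6.31), Oas2 (-0.83 to 8.52), Ifi209 (-3.98 to 8.61) and Oas3 (-3.17 to 9.42). The PBS intervals of Ifi203 and Ifitm6, and the OVA intervals of all these genes, leave out 0. After each nucleus had been thinned to 500 UMIs of nuclear genes, 3 of 32 PBS Monocyte nuclei (9.38%, interval 1.98 to 25.0) and 23 of 86 OVA Monocyte nuclei (26.7%, 17.8 to 37.4) had an Ifi207 UMI. Too shallow for this were 20 and 38 nuclei, and without thinning the shares were 26.9% and 36.3%. In fibroblasts, which served as the background, thinned shares were 0 of 362 nuclei, which allows up to 0.829%, and 1 of 841 nuclei (0.119%).

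Ifi204, a HIN-200 protein of myeloid differentiation and DNA sensing, had 64.9 CPM (5 UMIs) and 244 CPM (46 UMIs) in PBS and OVA Monocyte nuclei. In Macrophage nuclei it had 5.57 CPM (1 UMI) and 11.8 CPM (4 UMIs). Its Monocyte over Macrophage ratio was 4.37 on the log2 scale in the OVA library (2.91 to 6.30). Ifi203, of the same group, had 51.9 and 79.6 CPM in Monocyte nuclei, from 4 and 15 UMIs, against 0 and 5 UMIs in Macrophage nuclei.

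Macrophages were not uniform. In the small cluster led by Fcrls, Cd163 and C1qa the HIN-200 group reached 1218 CPM (PBS, interval 918 to 1586) and 1842 CPM (OVA, 1562 to 2158), 3.88 and 3.93 above the large unnamed cluster on the log2 scale. Its Ifi207 level was 842 CPM (38 UMIs) and 987 CPM (82 UMIs), against 320 CPM and 597 CPM in the Monocyte-like cluster and 45.5 CPM and 67.8 CPM in the unnamed cluster. The Gbp genes followed the same order of clusters with 288 and 433 CPM, 91.3 and 138 CPM, and 20.2 and 23.2 CPM. Slfn4 did not: it had 0 and 1 UMIs in the cluster led by Fcrls, Cd163 and C1qa. The Macrophage gate leaves out any nucleus with a monocyte marker. F13a1, on the list of monocyte markers, had 2016 CPM (PBS) and 2926 CPM (OVA) in that cluster, so the gate can remove such nuclei by its own rule. The gate holds 4 and 5 nuclei of that cluster, so its low values describe mostly other clusters. These were the unnamed cluster and the Macrophage-like clusters led by Sh2d1b1 and by Atp6v0d2. In the latter clusters the HIN-200 group had 84.3 and 130 CPM, and 95.2 and 151 CPM.

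**Figure D2:**
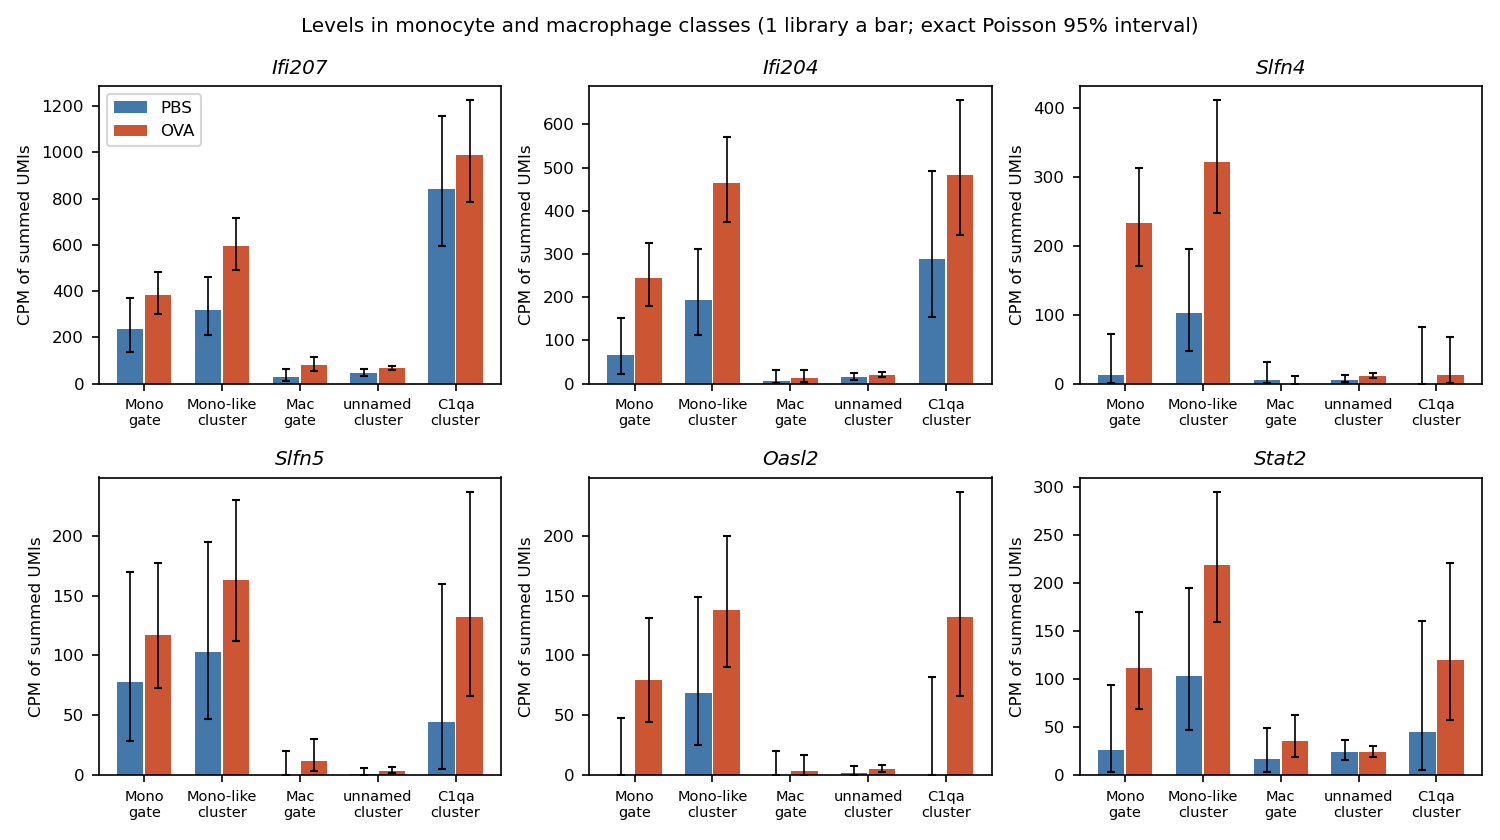
CPM of 6 members in the Monocyte gate, the Monocyte-like cluster, the Macrophage gate, the unnamed cluster led by Acaa1b and the Macrophage-like cluster led by Fcrls, Cd163 and C1qa (labelled C1qa cluster). Bars are summed UMIs of 1 library each (PBS blue, OVA red) and lines are exact Poisson 95% intervals. All 6 genes are higher in the Monocyte-like than in the unnamed cluster in both libraries, and Slfn4 is near 0 in the C1qa cluster.

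The Schlafens were higher in Monocyte than Macrophage nuclei in the OVA library. The family had 143 CPM in PBS and 541 CPM in OVA Monocyte nuclei, against 83.5 and 62.1 CPM in Macrophage nuclei. The log2 ratio of Monocyte over Macrophage was 0.77 in PBS, with an interval that holds 0 (-0.49 to 1.99), and 3.12 in OVA (2.43 to 3.88). Slfn4, a Schlafen of myeloid cells, had 1 UMI (13 CPM) in PBS and 44 UMIs (233 CPM) in OVA Monocyte nuclei, and 1 and 0 UMIs in Macrophage nuclei. In the OVA library its Monocyte level was therefore at least 26.3-fold higher, with 3 counts as the floor in Macrophage nuclei. Slfn5 had 77.9 and 117 CPM in Monocyte nuclei (6 and 22 UMIs), was next highest in Pericyte nuclei with 27.4 and 52.3 CPM, and had 0 and 4 UMIs in Macrophage nuclei. Slfn2, which keeps lymphocytes quiescent, had 77.9 CPM in PBS and 41.4 CPM in OVA Macrophage nuclei, beside 38.9 and 111 CPM in Monocyte nuclei. Slfn8 had 0 and 9 UMIs in Monocyte nuclei.

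Among the gated types, Oas genes were highest in Monocyte nuclei. Their summed level was 64.9 CPM (5 UMIs) in PBS and 228 CPM (43 UMIs) in OVA Monocyte nuclei, 5.57 and 14.8 CPM in Macrophage nuclei, and at most 24.3 CPM in any other gated type. Among clusters, the one led by Fcrls, Cd163 and C1qa had 133 CPM (6 UMIs) and 265 CPM (22 UMIs) and the Monocyte-like cluster 228 and 444 CPM, against 16.2 and 27.9 CPM in the unnamed cluster. Oasl2, an OAS-like protein with ubiquitin folds, had 0 and 15 UMIs in Monocyte nuclei, and 6 and 27 UMIs (68.5 and 138 CPM) in the Monocyte-like cluster. The Ifit family had 1 and 3 UMIs in the Monocyte gate. In the Monocyte-like cluster it had 1 UMI in PBS and 10 UMIs in OVA (51.0 CPM, 24.5 to 93.8), against 1 UMI (0.341 CPM) in the OVA nuclei of the unnamed cluster. Ifit2 had most of its UMIs in alveolar type 1 (AT1) nuclei (5 and 14) and fibroblasts (8 and 17). Isg15, the ubiquitin-like modifier named here after its values were seen, had 2 and 4 UMIs in Monocyte nuclei and 0 in Macrophage nuclei of both libraries. Its level in pericytes was 11.0 CPM (PBS) and 22.0 CPM (OVA), beside 26.0 and 21.2 CPM in Monocyte nuclei.

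Counted by the rule of size, at least 2-fold with 30 or more UMIs and an interval that leaves out equality, 6 of 8 members tested were higher in Monocyte than in Macrophage nuclei of the OVA library and none was lower. They were Ifi204, Ifi207, Slfn2, Slfn4, Stat2 and Irf2. Over all 2261 genes tested there, 9.38% were higher and 7.12% lower. The 30 UMIs were summed over the 2 groups compared, here and below. A member can thus be tested through the group where it is high, as Slfn4 was, so these counts only describe. In the PBS library 2 members were tested, Ifi30 and Irf2bp2, and none was past the limits, beside 7.51% higher and 7.16% lower of 866 genes. The median log2 ratio over members was 1.54 in OVA, where it was 0.05 over all genes. For the Monocyte-like over the unnamed cluster the counts were 4 of 11 higher and 0 lower in PBS (5.86% and 6.54% of all genes), and 17 of 27 higher and 1 lower in OVA (8.70% and 8.73%). Ifi204, Ifi207, Stat2 and Irf5 were higher in both libraries (Irf5, a regulator of inflammatory genes in myeloid cells, is named here after its values were seen), and the lower member was Ifitm10, with 0 UMIs in the Monocyte-like cluster.

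The members also met in single nuclei. Of the 59 genes in the HIN-200, Ifit, Oas, Slfn, Gbp, Isg and other Ifi groups, 3 or more different ones were found in 1 of 32 thinned PBS Monocyte nuclei (3.12%) and 20 of 86 OVA Monocyte nuclei (23.3%, interval 14.8 to 33.6). In the Monocyte-like cluster this was 6 of 29 nuclei (20.7%, 7.99 to 39.7) and 39 of 94 nuclei (41.5%, 31.4 to 52.1). In the cluster led by Fcrls, Cd163 and C1qa it was 5 of 21 and 17 of 46 nuclei. In the large unnamed cluster it was 0.662% and 0.448%, and in fibroblasts it was 0 of 362 and 0 of 841 nuclei.

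**Figure D3:**
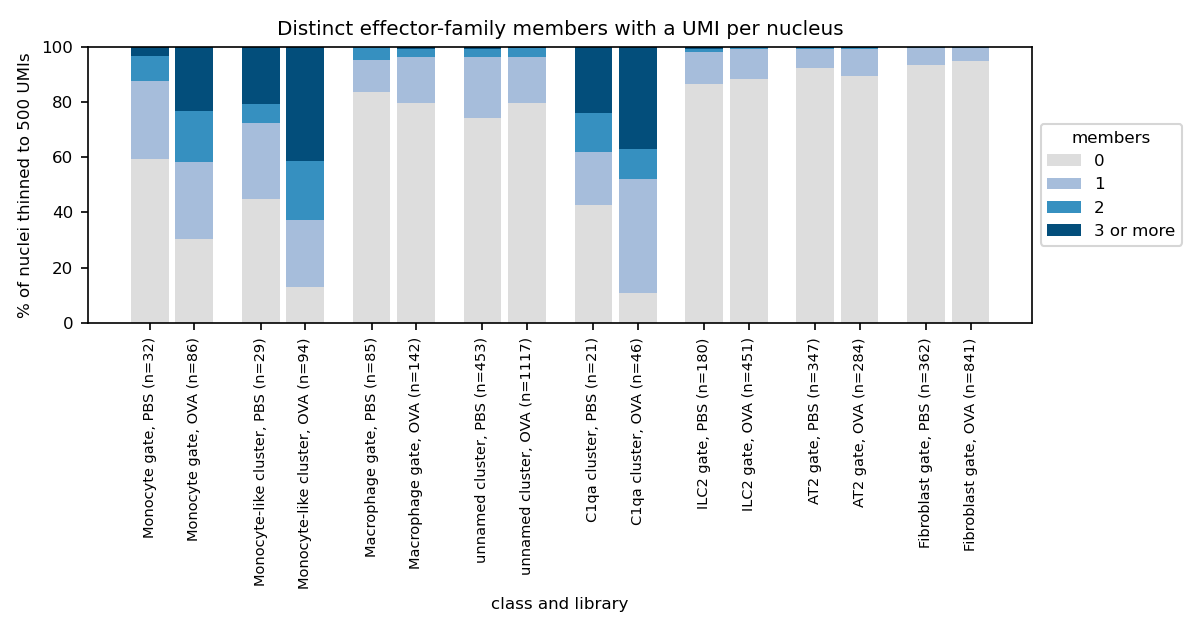
Share of nuclei, in percent, with 0, 1, 2 or at least 3 different members of the HIN-200, Ifit, Oas, Slfn, Gbp, Isg and other Ifi groups, after thinning to 500 UMIs of nuclear genes (n in the labels). The dark segments are tall in the Monocyte gate of the OVA library (23.3%), in the Monocyte-like cluster (20.7% and 41.5%) and in the cluster led by C1qa, and nearly absent elsewhere.

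Between the libraries, Slfn4 and Ifi204 were higher in OVA Monocyte nuclei. In the Monocyte gate 2 of 5 members tested were higher in OVA and 0 lower, beside 14.4% and 2.34% of 1155 genes. Slfn4 went from 13 CPM (1 UMI) to 233 CPM (44 UMIs), a log2 ratio of 4.17 (1.62 to 9.50), and Ifi204 from 64.9 to 244 CPM, a log2 ratio of 1.91 (0.58 to 3.60). All genes together were shifted by a median of 0.46 in this gate, and relative to this shift the ratios were 3.71 and 1.45. Both intervals hold 0 after thinning (Slfn4 2.57, -0.11 to 7.96, and Ifi204 1.74, -0.32 to 4.90) and with a joint filter on RNA and chromatin counts (2.69, -0.01 to 8.09, and 1.31, -0.24 to 3.30). In the Monocyte-like cluster the log2 ratio was 1.65 for Slfn4 (9 and 63 UMIs, 0.63 to 2.84), 1.26 for Ifi204 (17 and 91 UMIs, 0.50 to 2.10) and 1.09 for Stat2 (0.04 to 2.32), and the interval of Stat2 holds 0 on nuclear genes. Ifi207 had a ratio of 0.90 there (0.30 to 1.55), short of 2-fold. Summed over families the ratios in the Monocyte gate were 1.29 for HIN-200 (0.71 to 1.93), 1.81 for Oas (0.48 to 3.51), 1.92 for Slfn (1.02 to 2.97) and 0.85 for Irf (0.08 to 1.70). These sums are per all gene UMIs and are not set relative to the median shift of 0.46. The lower limit for Irf lies below that shift, and the one for Oas only just above it. Intervals that hold 0 belonged to Gbp (1.12, -0.68 to 3.55), Irf2bp (0.42), Ifit (0.29), Ifitm (0.10, -0.76 to 1.03), the other Ifi genes (-0.42, -1.32 to 0.52) and Isg (-0.55, -2.92 to 2.13).

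The gated monocytes were not alike in the libraries. Ly6c2, a marker of classical monocytes, had 234 CPM in PBS and 26.5 CPM in OVA Monocyte nuclei, while Adgre4, an adhesion receptor of monocytes, had 51.9 and 154 CPM. In the Monocyte-like cluster the values were 183 and 35.7 CPM for Ly6c2 and 114 and 245 CPM for Adgre4. The share of Monocyte nuclei that fell in the Monocyte-like cluster was lower in PBS (24 of 52) than in OVA (79 of 124). The part of these differences in the ratios above was not tested.

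In Macrophage nuclei 1 of 3 members tested was higher in OVA and 0 lower, beside 8.98% and 1.32% of 2050 genes. It was Ifi207, with a log2 ratio of 1.52 (0.12 to 3.25), whose interval holds 0 on nuclear genes (-0.04 to 3.09). The other Ifi genes had a summed ratio of -1.06 there (20 and 18 UMIs, -2.07 to -0.07). In ILC2s 2 of 8 members tested were higher and 0 lower, beside 8.82% and 1.56% of 4285 genes. Ifitm2 was among them (5 and 32 UMIs, log2 ratio 1.59, 0.22 to 3.30), and its interval also holds 0 on nuclear genes. In alveolar type 2 (AT2) nuclei 0 of 9 members tested were past the limits, beside 5.73% higher and 1.02% lower of 5667 genes, and the median ratio of members was 0.12, against 0.30 over all genes.

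Stat2, a transducer of type I interferon signals, had 27.4 and 79.8 CPM in pericytes, the cells that wrap capillaries (log2 ratio 1.54, 0.16 to 3.27), 44.7 and 70.6 CPM in fibroblasts (0.66, 0.09 to 1.27), and 20.6 and 53.4 CPM in myofibroblast or smooth muscle nuclei (1.37, 0.14 to 2.81), and all 3 intervals hold 0 on nuclear genes. In Monocyte nuclei Stat2 had 26.0 CPM (2 UMIs) and 111 CPM (21 UMIs). By the rule of size 3 of 8 members tested were higher in OVA pericytes and 0 lower (6.79% and 0.824% of 2914 genes), among them Stat2 and Irf8, a factor of myeloid cells with 4 and 27 UMIs. In fibroblasts 1 of 13 was higher and 0 lower (2.57% and 1.20% of 7557 genes). In myofibroblast or smooth muscle nuclei 3 of 9 were higher and 0 lower (5.31% and 0.865% of 4163 genes), among them Stat2 and Irf2bpl.

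**Figure D4:**
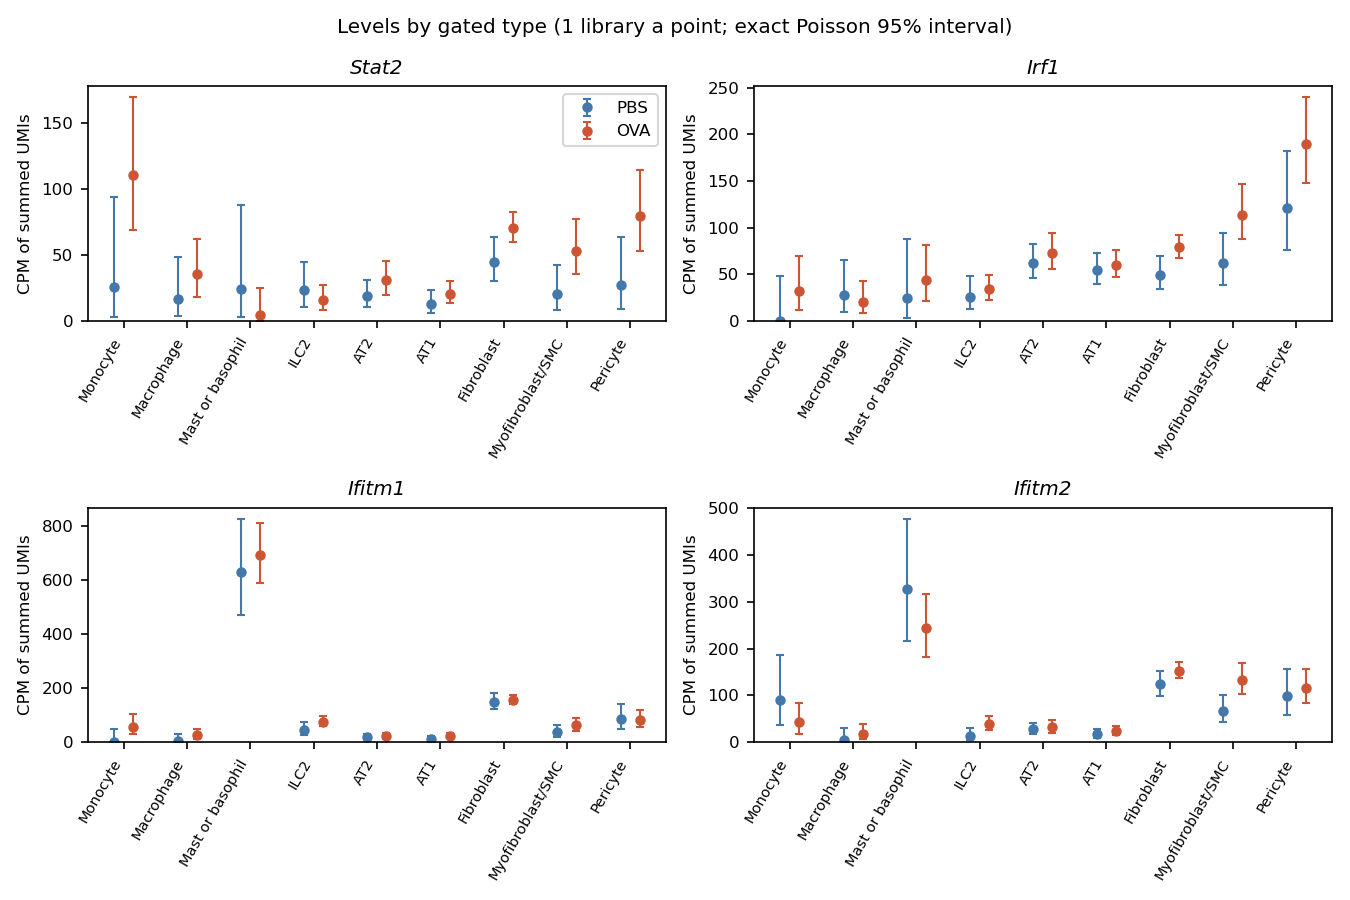
CPM of Stat2, Irf1, Ifitm1 and Ifitm2 in the 9 gated types (x axis), 1 point a library (PBS blue, OVA red) with exact Poisson 95% intervals. Irf1 is highest in pericytes (121 and 190 CPM), and Ifitm1 (631 and 695 CPM) and Ifitm2 (328 and 243 CPM) are highest in mast or basophil nuclei.

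The interferon regulatory factors were spread more evenly. Irf1, an early interferon target, was highest in pericytes with 121 and 190 CPM and had 0 and 6 UMIs in Monocyte nuclei. Irf2, a repressor that competes for the same sites, had between 49.3 and 119 CPM over all types of the PBS library and between 55.0 and 175 CPM in OVA, lowest in pericytes in both. Irf9, which joins STAT proteins at the ISRE, stayed between 10.0 and 51.9 CPM. Irf2bp2, a corepressor that shares only the name, was highest in ILC2s with 475 and 471 CPM, 0.67 (0.37 to 0.96) and 0.72 (0.54 to 0.91) above fibroblasts on the log2 scale.

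The Ifitm genes followed another order of types. Ifitm1 had 631 CPM (52 UMIs, 471 to 828) and 695 CPM (157 UMIs, 590 to 812) in mast or basophil nuclei, over 4 times the fibroblast levels of 151 and 158 CPM, and the log2 ratios to fibroblasts were 2.07 (1.56 to 2.56) and 2.14 (1.86 to 2.42). After thinning, 11 of 37 and 30 of 97 mast or basophil nuclei had an Ifitm1 UMI (29.7% and 30.9%), beside 0.962% and 1.23% of AT1 nuclei. Ifitm2 was highest in the same nuclei with 328 and 243 CPM. Ifitm3 was highest in pericytes with 137 and 113 CPM, which did not differ from fibroblasts (96.9 and 90.9 CPM) beyond counting error. The libraries did not differ in the summed Ifitm level of fibroblasts beyond counting error, with a log2 ratio of 0.12 (-0.08 to 0.33). The ratio was 0.69 (0.25 to 1.14) in myofibroblast or smooth muscle nuclei and 0.77 (0.13 to 1.43) in AT1 nuclei, per all gene UMIs. Mitochondrial UMIs made up 29.7% (PBS) and 19.2% (OVA) of the former and 26.9% and 18.6% of the latter, so both ratios are smaller on nuclear genes. On that scale the AT1 interval holds 0. In the remaining gated types the interval of the Ifitm ratio per all gene UMIs holds 0.

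Among the other Ifi genes, Ifi30, a lysosomal reductase of antigen processing, had 182 and 58.4 CPM in Monocyte nuclei and 89.0 and 38.5 CPM in Macrophage nuclei. Ifi27l2a had 38.9 and 63.7 CPM in Monocyte nuclei and at most 13.3 CPM in other gated types. Ifi27 and Ifi35 were low throughout, with at most 31.8 CPM. Isg20, an RNA exonuclease, had its UMIs mainly in the epithelium, with 19.4 and 9.78 CPM in AT1 and 11.2 and 20.5 CPM in AT2 nuclei. Gbp7 had at most 30.3 CPM in any gated type.

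Other genes of the interferon pathway were read from a list of 97. Of the 20 interferon genes in it, Ifng alone had any UMI in the kept nuclei, 2 with PBS and 1 with OVA, where 3 counts of all UMIs would be 0.439 and 0.254 CPM. All 6 receptor chains and 3 kinases on the list were found. Ifnar2, a chain of the type I receptor, was highest in fibroblasts with 197 and 219 CPM, and Ifngr1 in ILC2s with 345 and 293 CPM. Jak1 was highest in fibroblasts with 529 and 965 CPM and Jak2 in ILC2s with 410 and 647 CPM. Of the pathway genes tested, 9 of 18 were higher in OVA Monocyte than Macrophage nuclei (9.38% of all genes tested), and 6 of these 9 were other interferon targets: Sp100, Trim30a, Rnf213, Epsti1, Parp14 and Eif2ak2. Trim30a, an immune ubiquitin ligase, had 233 CPM against 23.7 CPM there, and Sp100, a nuclear body protein, 228 against 20.7 CPM. B2m, the light chain of class I molecules, had 175 against 82.8 CPM. Between libraries, 3 of 12 pathway genes tested in Monocyte nuclei were higher in OVA (14.4% of all genes tested), Sp100, Trim30a and Pias1, and all 3 intervals hold 0 on nuclear genes. In Macrophage nuclei 3 of 10 were higher (8.98% of all genes tested), Ifnar2, Tbk1 and Pias1, and Ifnar2 alone kept an interval above 0 on nuclear genes (log2 ratio 1.57, 0.48 to 2.86). Trim25, a ligase that activates the RNA sensor RIG-I, had 523 and 604 CPM in Macrophage nuclei and 325 and 451 CPM in Monocyte nuclei.

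Chromatin at the gene starts differed less than RNA. Peaks within 1000 bp of the start were found for 64 members in PBS (97 peaks without the Irf2bp genes, 83267 bp) and 62 in OVA (89 peaks, 76543 bp), called in each library separately. Scaled to counts in all peaks near gene starts, the summed accessibility in Monocyte over Macrophage nuclei was -0.08 on the log2 scale in PBS (-0.22 to 0.07, 577 and 1190 counts) and 0.18 in OVA (0.08 to 0.28, 1518 and 1757 counts). For the Monocyte-like over the unnamed cluster it was 0.26 (0.17 to 0.36) and 0.33 (0.27 to 0.40). Of 24 members with enough counts in both readouts of the OVA library, the median ratio between those clusters was 2.69 for RNA and 0.56 for accessibility, and the RNA ratio was the larger one for 21. Slfn4 had an RNA ratio of 4.88 (4.25 to 5.54) and an accessibility ratio of 1.67 (0.84 to 2.43). Ifi204 had 4.51 and 0.76, and Ifi207 3.14 and 0.73. Peaks near a start can belong to a neighbour, as in the packed HIN-200 and Ifit clusters.

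**Figure D5:**
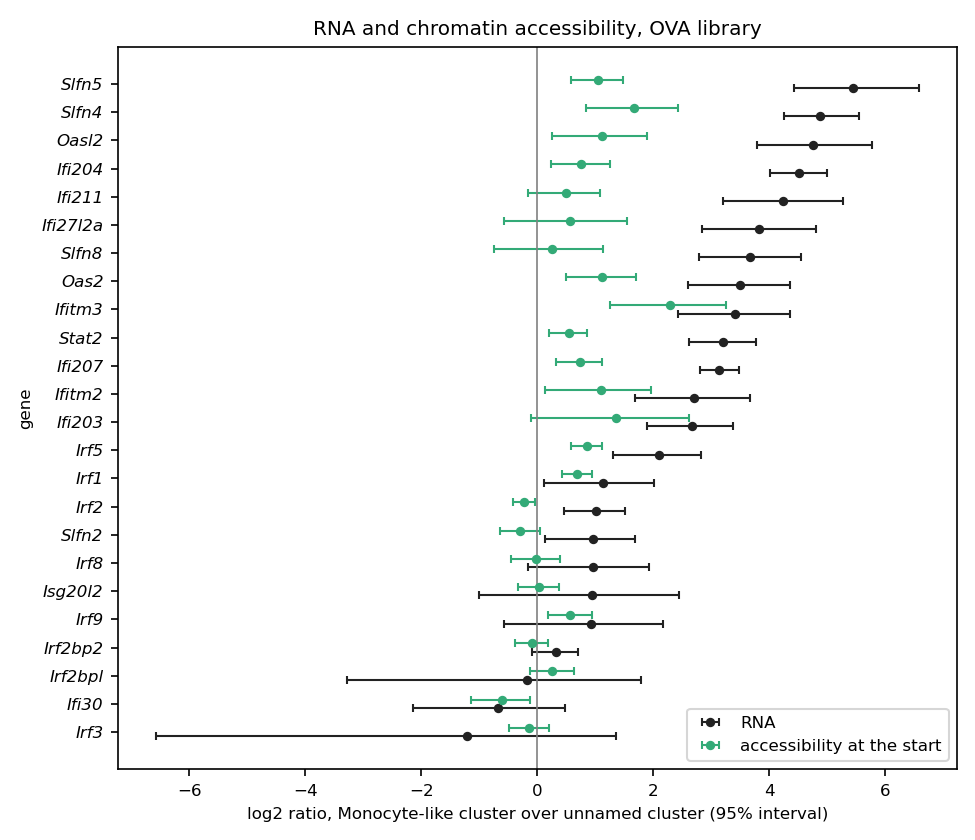
Log2 ratio of the Monocyte-like over the unnamed cluster in the OVA library, for RNA (black) and for accessibility of peaks within 1000 bp of the start (green), with exact 95% intervals. For 21 of 24 members the RNA ratio is the larger one, with medians of 2.69 and 0.56.

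The motif and the levels were set side by side as a description. In the OVA library, 9 members with an ISRE core that could be compared between the same clusters had RNA ratios with a median of 3.20, all above 0 and from 1.01 to 5.45. The 14 members without a core had a median of 0.95, with 10 above 0. Between these clusters in the PBS library the medians were 2.08 with a core (3 members) and 0.73 without (6 members). Between Monocyte and Macrophage nuclei of the OVA library the medians were closer, 1.65 with and 1.43 without a core. Those came from 3 members each, all above 0. The members share libraries, depth and in part their gene neighbours, so they are not independent. Slfn4 and Oasl2 were among the members without a core in the window and had ratios of 4.88 and 4.75 between the clusters of the OVA library.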

How the data were processed

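Single-nucleus RNA and chromatin counts of 2 pooled fetal lung libraries were used. The authors deposited raw UMI and peak counts made with Cell Ranger ARC 2.0.1 on mm10, not normalized. Nuclei needed 200 or more genes and no more than 60% mitochondrial UMIs, and doublets were called from simulated ones (293 PBS, 250 OVA) and removed. Types were gated from markers of 18 types (2 or more, leading the next type by 1). Sftpc and Mfap4 were not counted, being found in over 30% of nuclei of each library, and the rule between monocytes and macrophages was set after marker levels had been seen. UMIs were summed per type and library. CPM received exact Poisson intervals, ratios exact binomial intervals and shares Clopper-Pearson intervals, checked on simulated counts. Leiden clusters (30 components, 15 neighbours, resolution 1.0) served as an alternative. Genes were named by a rule: up to 4 members a family with the most UMIs, those 4-fold above the next type, those past the rule of size, and 2 pathway genes a role. Some members and markers are not reported here. The members and lists were chosen with earlier results of these data known. Computations used Python with numpy, scipy, scikit-learn and leidenalg.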

Additional observations from a re-analysis of the deposited data

How the results depend on the processing

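No paired analysis was possible because PBS and OVA had 1 library each, and for the same reason no library could be left out. Of 139 alternative values of the main results 96 stayed within their limits, 43 moved and 0 were labelled reversed, and the cause was not tested. That label did not cover every change of sign, as some median ratios between libraries given below changed sign. The summed level of Monocyte over Macrophage nuclei (log2 1.04 in PBS, 1.88 in OVA) stayed above 0. In PBS it was 1.57 with 1 more marker, 1.56 in the named clusters and 1.46 without the Irf2bp genes. In OVA it was 0.99 at 20% mitochondrial UMIs, 1.5 with the joint count filter, 2.16 as the mean CPM of nuclei and 2.19 without the Irf2bp genes. With the unnamed cluster as Macrophage, chosen after seeing the data, it was 1.62 and 2.17. Members past 2-fold between libraries numbered 2 in Monocyte, 1 in Macrophage and 2 in ILC2 nuclei. With either nuclear denominator, or centred on the median gene, they were 0 in Macrophage and 1 in ILC2 nuclei. They were 0 in all 3 types at a minimum of 100 UMIs. They were 0 after thinning, where 1 member each could be tested in Monocyte and Macrophage nuclei. They were 0 at 20% mitochondrial UMIs, where no member could be tested in Monocyte or Macrophage nuclei. They were 0 in Monocyte and 1 in ILC2 nuclei with the joint filter, 2 in Macrophage nuclei with doublets kept, 1 in Monocyte and 0 in Macrophage nuclei with 1 more marker, 4 in Monocyte nuclei without Ly6c2 and Plac8, and 4 in Macrophage and 1 in ILC2 nuclei in both cluster settings. After thinning, the median ratio changed sign in ILC2 nuclei (-0.27, against 0.30 in the main setting). In Macrophage nuclei it was -0.74 from 1 member after thinning, against 0.33 from 3 members in the main setting. In Monocyte nuclei it was 0.19 with 1 more marker. In AT2 nuclei it was 0.12 in the main setting and changed sign at 20% mitochondrial UMIs (-0.23). It was 0.40 there with 1 more marker and 0.37 in both cluster settings. Accessibility in the named clusters was 0.21 (PBS) and 0.33 (OVA). The share of PBS Monocyte nuclei with Ifi207 was 26.9% without thinning. Of 55 alternative ratios of the single genes past 2-fold, 0 changed sign and 14 had an interval that holds 0, among them Slfn4 and Ifi204 in Monocyte nuclei after thinning and with the joint filter, and Ifi207 in Macrophage and Ifitm2 in ILC2 nuclei with nuclear denominators.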

Other observations

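The PBS Monocyte gate held 52 nuclei and 77037 UMIs, so that 1 UMI there was worth 13 CPM, the level given for Slfn4. The 2 libraries differed in treatment, dam, litter and depth together, and no value here tells these apart.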
